A study of Lotus japonicus with 6 samples.

Results

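LjHSF14 and LjHSF16 are 2 of the 18 heat shock factor codes on a Lotus japonicus array, and LjMBF1-1 to LjMBF1-5 are its 5 multiprotein bridging factor 1 codes. The members were taken by name: all non-control spots named LjHSF14, LjHSF16 or LjHSF16_est, or starting with LjMBF1. This gave 14 probes and 28 spots for 7 genes, out of 6358 probes for 2950 genes on the array (an _est ending aside). LjHSF14 has 2 probes, LjHSF16 has 3 with LjHSF16_est, LjMBF1-5 has 1, and each other LjMBF1 gene has 2, all spotted in duplicate.

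Heat shock factors are transcription factors that assemble on heat shock elements in promoters, best known for switching on chaperone genes when proteins are damaged by heat. In plants they form a large family, in which class A members activate transcription and many class B members lack an activation domain. MBF1 proteins are small coactivators that connect DNA-binding factors with the TATA-binding protein, and in Arabidopsis MBF1c is induced by heat and takes part in thermotolerance. The sources used here do not say to which class LjHSF14 and LjHSF16 belong, or which LjMBF1 code stands for the counterpart of MBF1c.

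Total RNA of leaves was measured on 6 single-colour arrays, 1 per sample, on which 3.43% of 5039 tested probes were called in limma (2.3% higher and 1.13% lower in the lines). The 3 transgenic samples, each an independent line, carry the label LjMyb14 overexpressing, with the transgene under the ubiquitin promoter of Lotus, a constitutive one. The other 3 are labelled wild type. All are of germplasm MG20, grown in vitro on MS medium. No heat treatment is named for either group, and plant age is not given. In bulk leaf RNA, fewer cells of a type and less RNA per cell cannot be told apart.

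The difference of wild type array 1 from wild type array 3 was below the noise between duplicate spots of 1 array. Relative to that noise, the variance between these arrays was 0.598, while the other within-group pairs of arrays had ratios of 4.49 to 19.6. They were averaged and counted as 1 sample, so wild type has n = 2 and the lines n = 3 in every mean, although the labels number 3 wild type samples. Whether the wild type samples came from separate plants is not given, so their spread may be technical. Both probes of LjMYB14, the gene of the label, lay near background. At the probe tested, the log2 signal was -5.79, -4.62 and -6.03 in lines 1 to 3, against -6.07, -5.20 and -5.89 in wild type arrays 1 to 3. LjMYB76a was higher by 7.54 on the log2 scale, and whether any of these probes lies in the introduced sequence is not given. The transgenic samples are called the lines below, by their label. No name on the array matched the patterns of the chaperone, leaf or nodule lists that were looked for. The LB and BAG patterns were matched only at the start of a name, so such codes behind a prefix would be missed. The array's 86 LjMADS genes, which include floral regulators, were the only marker list of another tissue with matches. Of 53 tested, 1 was called higher and 1 called lower.

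Signal is given as log2 of the spot intensity over the 75th percentile of its array, so 0 marks that percentile, and each value is the mean of duplicate spots. It orders samples within a probe and not probes or genes among themselves. A spot is called well above background where the scanner software marked it so. The lowest such signal was between -6.37 and -5.60 on the 6 arrays. The members were chosen by their measured difference between the lines and wild type, or for LjMBF1 with that difference known. It is therefore described for them and not tested.

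LjHSF16 was higher in every line than on every wild type array at all 3 of its probes. LjHSF14 was so at 1 of its 2 probes, and that probe was near background in wild type. None of the LjMBF1 probes was higher in all lines, and 1 was lower in all. Of the 13 member probes that passed the filter on dim probes, 4 had all lines above all wild type arrays, a pattern held by 15.7% of the 5039 probes tested. The single probe with all lines below all wild type arrays compares with 21.7% of those probes. The same 4 probes were at least 2-fold higher in the lines, as were 6.51% of all probes tested, and none of the 13 was 2-fold lower, as 5.5% of probes were. Since the contrast chose the members, nothing is read from these shares.

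Every spot of the 3 LjHSF16 probes was well above background on every array. At probe CUST_1562_PI399331514 the log2 signal was 3.66, 3.70 and 2.93 in lines 1, 2 and 3, against 1.65, 1.73 and 1.60 on wild type arrays 1, 2 and 3. Line 3 was the lowest line, yet it lay 1.20 above the highest wild type array. The means were 3.43 ± 0.44 in the lines (SD, n = 3) and 1.68 ± 0.07 in wild type (SD, n = 2), a log2 difference of 1.75, or 3.37-fold.

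The other probes of LjHSF16 gave the same separation of the groups with another order of the lines. At CUST_1563_PI399331514 the lines had 2.72, 2.51 and 1.84 and the wild type arrays 0.38, 0.50 and 0.49. The means were 2.36 ± 0.46 in the lines (SD, n = 3) and 0.47 ± 0.04 in wild type (SD, n = 2), a log2 difference of 1.89, again with line 3 the lowest. At LjHSF16_est the lines had 2.23, 1.32 and 1.53, and the wild type arrays had 0.31, 0.12 and 0.20. Here the means were 1.69 ± 0.47 in the lines and 0.19 ± 0.09 in wild type (SD, n = 3 and 2), the log2 difference was 1.51, and line 2, not line 3, was the lowest. Line 1 minus line 2 was 0.91 at this probe, against -0.04 and 0.21 at the other probes. Duplicate spots of these 3 probes differed by at most 0.09 on any array, so the disagreement over line 2 was far larger than the spread between spots. The range of the log2 difference over the 3 probes, 0.38, was wider than in 79.4% of the 2037 genes with several tested probes. Those genes had 2 or more probes and were not matched for their number, with which a range tends to grow.

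**Figure D1:**
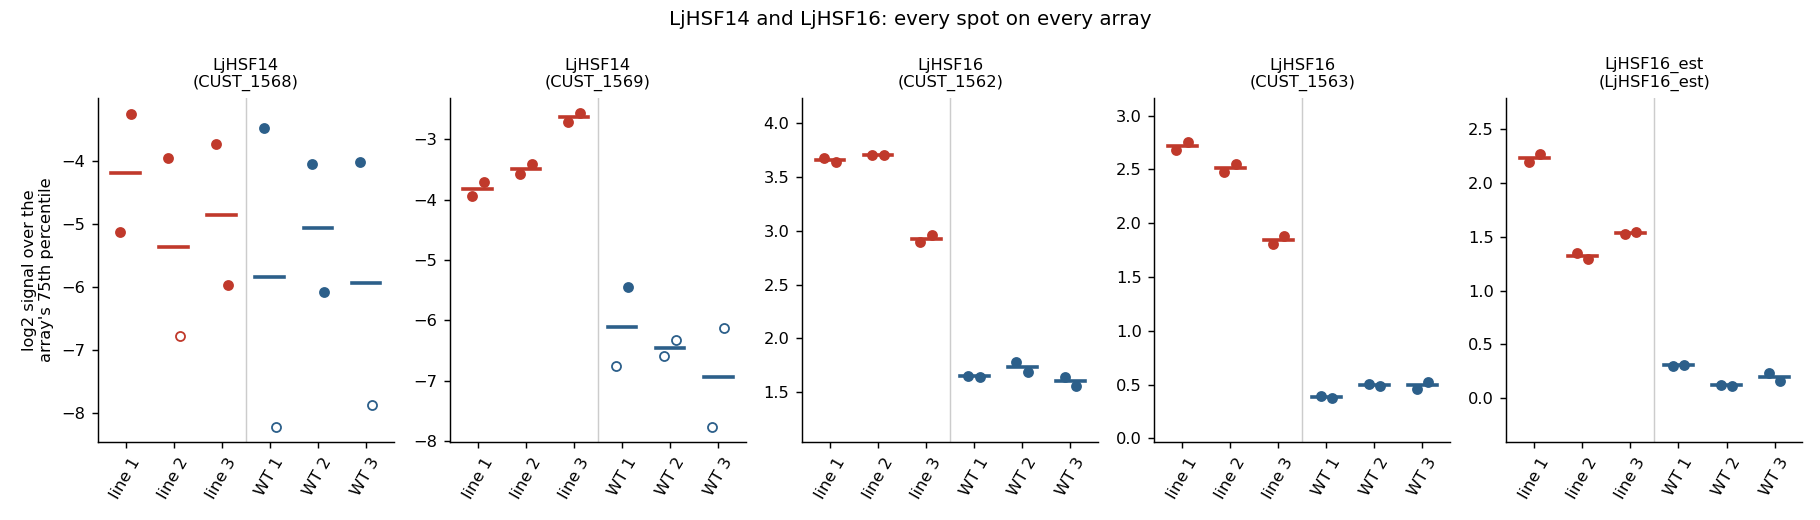
Log2 signal over the array's 75th percentile (vertical axis, own scale in each panel) for the LjHSF14 and LjHSF16 probes in lines 1 to 3 (red) and wild type arrays 1 to 3 (blue). Points are single spots, open where not well above background, and bars are the mean of the spots. All lines lie above all wild type arrays at 4 of the 5 probes, and the duplicate spots of LjHSF14 probe CUST_1568 lie far apart.

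The lines and wild type were apart at one LjHSF14 probe and overlapped at the other. At CUST_1569_PI399331514 the log2 signal was -3.82, -3.49 and -2.63 in lines 1, 2 and 3, against -6.10, -6.46 and -6.94 on wild type arrays 1, 2 and 3. The groups were 2.28 apart at their nearest, and line 3 was the highest line, whereas it was not the highest at any LjHSF16 probe. The means were -3.32 ± 0.61 (SD, n = 3) in the lines and -6.49 ± 0.05 (SD, n = 2) in wild type, a measured log2 difference of 3.17. The wild type SD understates the spread, since arrays 1 and 3, on either side of array 2, were averaged first. The 3 wild type arrays ranged over 0.84. In intensity the spots read 26.3 to 68.1 in the lines, against 1.78 to 8.86 in wild type.

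All 6 line spots of this probe were well above background, but only 1 of 6 wild type spots was, on array 1. The wild type level is thus mostly at the limit of what the arrays measure, and the measured difference is not a fold change of a known wild type level. Each wild type array was then set to the lowest signal well above background on it, or to its own probe mean where higher. The lines were 6.71-fold higher by this, or 2.75 on the log2 scale. It is no strict lower bound, since the 1 wild type spot well above background, at -5.45, was first averaged with its dimmer duplicate. The value compares group means and leaves out their spread, and the lowest such signal on an array is not this probe's own limit. The probe would have passed the filter through the 3 lines alone. With the normexp background correction, which adds an offset of 50 to every intensity, the log2 difference was 0.60.

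The other LjHSF14 probe, CUST_1568_PI399331514, gave means of -4.19, -5.37 and -4.85 in the lines and -5.85, -5.07 and -5.94 in wild type. The groups overlapped, with wild type array 2 above line 2, and the log2 difference was 0.68. Its duplicate spots disagreed. Spot 1 had intensities of 11.6, 25.1 and 30.4 in lines 1, 2 and 3, against 34.7, 22.1 and 24.0 on wild type arrays 1, 2 and 3. Spot 2 had 42.5, 3.55 and 6.40 in the lines, against 1.30, 5.35 and 1.65 in wild type. Spot 1 was thus well above background on all 6 arrays with overlapping groups, while spot 2 was bright in line 1 only. The log2 difference was -0.38 from spot 1 alone and 1.73 from spot 2 alone.

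The largest gap between these duplicate spots, 4.73 on wild type array 1, compares with a median largest gap of 0.25 over the 4556 tested probes with 2 spots. Only 15 of those probes, 0.329%, had a gap over 4. No member spot carried an outlier flag. The log2 differences of the 2 LjHSF14 probes were 2.50 apart, a wider range than in 99.5% of genes with several tested probes. The higher level of LjHSF14 in the lines therefore rests on 1 probe. At that probe spots 1 and 2 alone gave measured log2 differences of 3.52 and 2.83.

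The arrays of lines 2 and 3 lay in row 1 of the slide, and those of line 1 and wild type in row 2. Within row 2, line 1 was above the wild type mean by 1.98, 2.25 and 2.04 at the LjHSF16 probes CUST_1562_PI399331514, CUST_1563_PI399331514 and LjHSF16_est. It was above it by 2.67 at LjHSF14 probe CUST_1569_PI399331514. These are values of 1 line. For lines 2 and 3, the row and the group cannot be told apart.

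**Figure D2:**
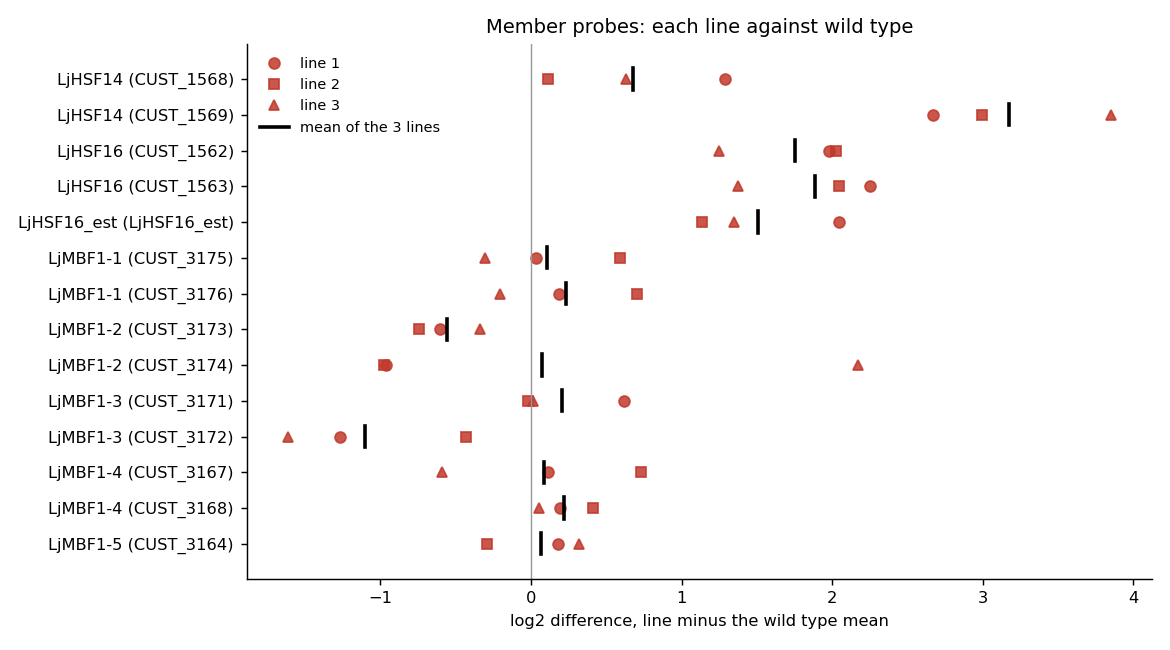
Log2 difference of each line from the wild type mean (horizontal axis) at the 14 member probes, with circles, squares and triangles for lines 1, 2 and 3 and a black bar for their mean. The LjHSF16 probes have all lines between 1.14 and 2.25, while at LjMBF1-2 probe CUST_3174 line 3 stands at 2.17 and lines 1 and 2 near -0.97.

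Of the 9 probes of the LjMBF1 genes, 8 passed the filter. None of these had all lines above all wild type arrays, as 15.7% of all probes tested had. At 7 the lines and wild type overlapped, and 1 had all lines below, beside 21.7% of all probes. By group means none of the 8 was 2-fold different, while 6.51% of all probes were 2-fold higher and 5.5% lower. At CUST_3174_PI399331514 the mean hides line 3 at 2.17 from wild type, with lines 1 and 2 near -0.97. Nothing is read from these counts.

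LjMBF1-1 was well above background at both probes on every array. At CUST_3175_PI399331514 the log2 signal was 3.66, 4.22 and 3.32 in lines 1, 2 and 3, against 3.56, 3.68 and 3.60 in wild type. Line 2 was above and line 3 below every wild type array, and the log2 difference of the means was 0.11. At CUST_3176_PI399331514 the lines had 2.79, 3.30 and 2.40 and the wild type arrays 2.71, 2.50 and 2.69, with the lines in the same order. The lines thus spread over 0.90 at both probes, against a wild type range of 0.12 and 0.21. A smaller range of the lines was found at 67.1% and 67.5% of all tested probes, and the median range was 0.61.

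LjMBF1-2 was the member whose probes agreed least about line 3. At CUST_3174_PI399331514 the log2 signal was 1.17, 1.16 and 4.31 in lines 1, 2 and 3, against 2.56, 1.69 and 2.60 on wild type arrays 1, 2 and 3. Line 3 was above every wild type array and lines 1 and 2 below them, so the mean difference of 0.08 describes none of the lines. Without line 3 the log2 difference was -0.97. Line 3 lay 3.14 above the mean of lines 1 and 2, a distance reached in either direction by 11 of the 5039 probes tested, or 0.218%. Duplicate spots differed by at most 0.09, so both spots of the probe carried the high value of line 3.

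The other LjMBF1-2 probe did not show line 3 apart. At CUST_3173_PI399331514 the lines had 0.86, 0.72 and 1.12 and the wild type arrays 1.56, 1.35 and 1.58. All lines were below all wild type arrays, with a gap of 0.23 between the groups. The means were 0.90 ± 0.21 in the lines and 1.46 ± 0.16 in wild type (SD, n = 3 and 2), a log2 difference of -0.56. Line 3 was 0.33 above the mean of lines 1 and 2 here. Lines 1 and 2 were below wild type at both probes, at -0.60 and -0.74 from its mean here and -0.97 and -0.98 at CUST_3174_PI399331514. Wild type array 2 was also the lowest wild type array at both. The position of line 3 relative to the other lines differed between the 2 probes by 2.81, more than in 99.8% of genes with several tested probes.

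LjMBF1-4 at CUST_3167_PI399331514 had the lines in the order of LjMBF1-1. Its log2 signal was 0.89, 1.51 and 0.18 in lines 1, 2 and 3, against 0.74, 0.78 and 0.79 in wild type. Wild type arrays were within 0.05 of each other, while the lines ranged over 1.33, a wider range than at 82.8% of all tested probes. The duplicate spots of line 3 were 0.71 apart, so its low value is less certain than the others. At the other probe, CUST_3168_PI399331514, the lines had -1.75, -1.53 and -1.89 and the wild type arrays -1.75, -2.24 and -1.53, and the groups overlapped. There the duplicate spots of wild type array 3 were 0.73 apart, so its value is less certain too.

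LjMBF1-5, with a single probe, had the reverse order of lines: 3.02, 2.54 and 3.16 in lines 1, 2 and 3, against 2.77, 2.91 and 2.77 in wild type. Line 2 was below and the other lines above every wild type array, and the log2 difference was 0.07. LjMBF1-3 had a probe at background. At its other probe, CUST_3171_PI399331514, it had -1.81, -2.45 and -2.42 in the lines and -2.17, -2.61 and -2.33 in wild type, and the high value of line 1 came from 1 spot that was 1.35 above its duplicate. At CUST_3172_PI399331514, which did not pass the filter, no line spot and 3 of 6 wild type spots were well above background, so no fold is given.

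**Figure D3:**
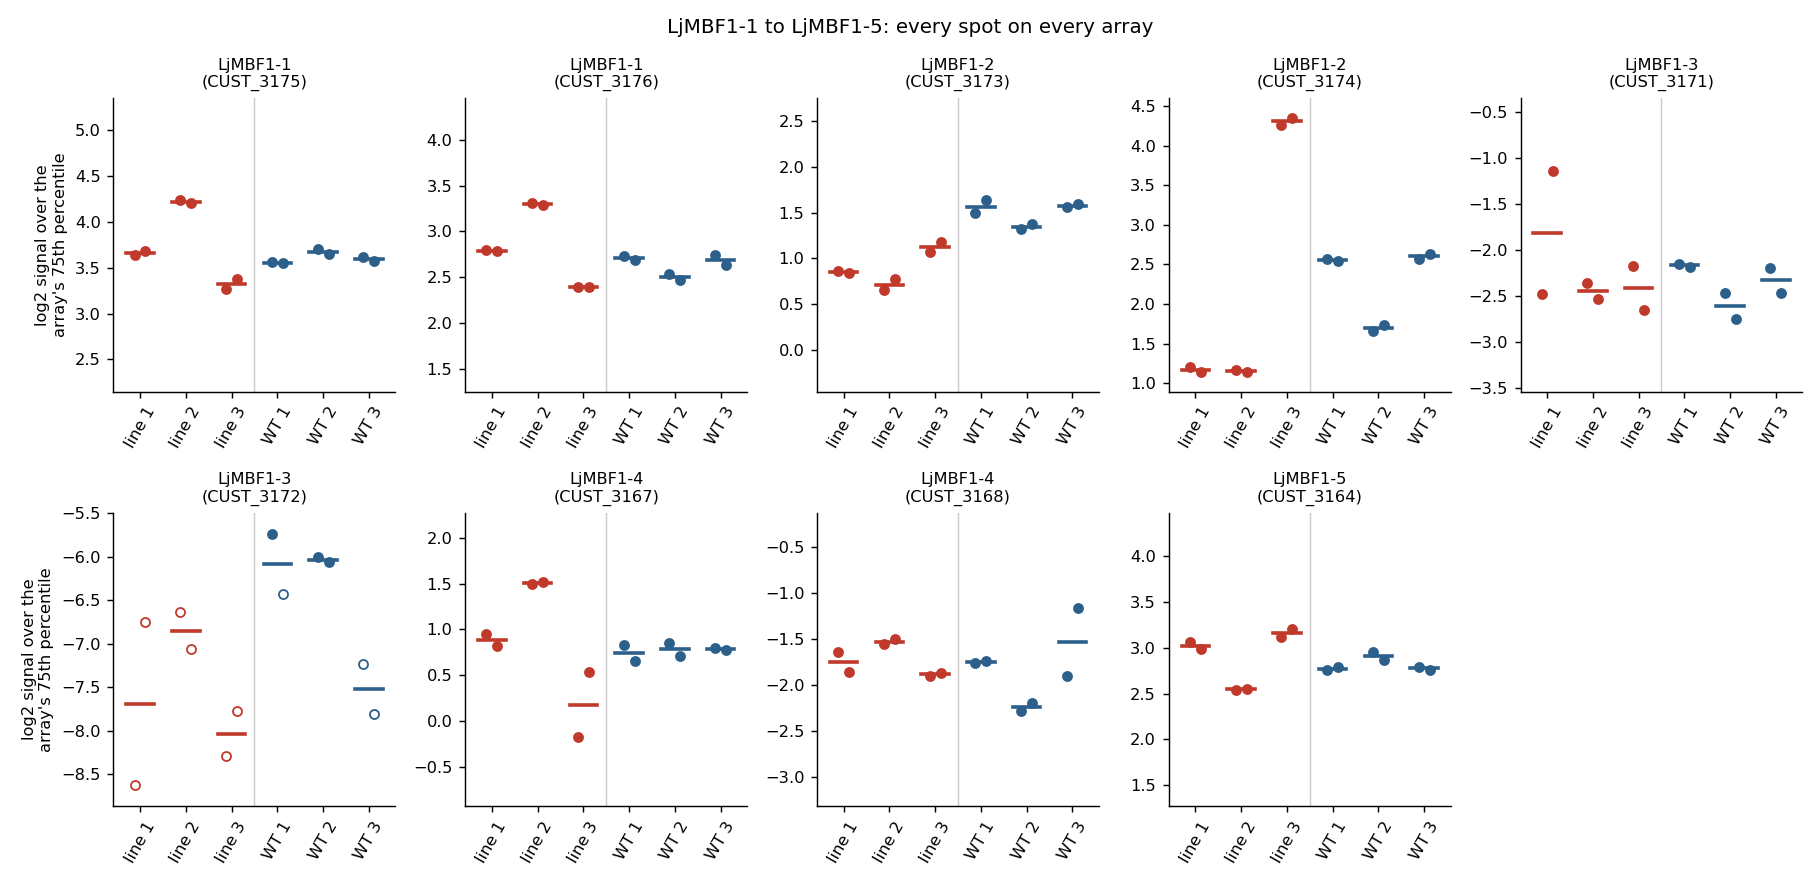
Log2 signal over the array's 75th percentile (vertical axis, own scale in each panel) for the 9 LjMBF1 probes in lines 1 to 3 (red) and wild type arrays 1 to 3 (blue), with single spots as points, open where not well above background, and their means as bars. Line 3 stands apart at LjMBF1-2 probe CUST_3174 and not at CUST_3173, and line 2 is the highest line at both LjMBF1-1 probes.

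The other 16 heat shock factor codes were all measured, and none was called in the comparison of the lines with wild type. These are the family without the members chosen for their difference, so their count does not stand for the whole family. At the brightest probe of each gene (highest mean over the arrays), 0 of 16 rose and 0 fell in limma at an adjusted p under 0.05, against 3.5% of 2543 genes called on the array (2.32% higher and 1.18% lower), and 2 of 16 had an unadjusted p under 0.05, as 19.9% of all genes had. Their median log2 fold change was -0.03, with 8 above and 8 below 0, beside -0.08 over all genes. Over their 39 probes the values ran from -0.72 to 1.33.

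LjHSF8 and LjHSF10 had the highest fold changes of these 16 and were the only ones whose groups did not overlap at the brightest probe. All lines lay above all wild type arrays for both, as for 15.9% of genes, and at that probe no factor had all lines below, as 21.1% of genes had. Over all 39 probes, 5 had all lines above all wild type arrays, beside 15.7% of all probes tested. All lines were below at 3 of the 39, beside 21.7% of all probes. These were 1 of LjHSF6 and 2 of LjHSF12, named here after their values were seen. LjHSF8 had a log2 signal of -1.10, -1.81 and -1.11 in lines 1, 2 and 3, against -2.69, -2.60 and -2.59 on wild type arrays 1, 2 and 3. Its log2 fold change was 1.28 with a 95% confidence interval from 0.56 to 2.00 (limma adjusted p = 0.0864), and its other probes gave 1.25 and 1.33. LjHSF8 passed the threshold in 4 of 17 alternative settings, with adjusted p between 0.0177 and 0.966 over these. Without line 2 it was one of them, with a log2 fold change of 1.52 and an adjusted p of 0.0177.

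LjHSF10 had 2.20, 2.22 and 2.41 in the lines and 1.52, 1.60 and 1.55 in wild type. Its log2 fold change was 0.71, with an interval from 0.23 to 1.19 (limma adjusted p = 0.131; 0.0224 to 0.999 over 17 alternatives, of which 2 passed), and 0.70 at its other probe. At the low end, LjHSF11 had a log2 fold change of -0.55 (interval -1.86 to 0.76, limma adjusted p = 0.633) and LjHSF3 one of -0.53 (-1.85 to 0.79, limma adjusted p = 0.652). In both, the lines went different ways: line 2 was above the wild type mean by 0.44 for LjHSF11, with lines 1 and 3 at -0.91 and -1.18, and for LjHSF3 lines 1, 2 and 3 were at -0.31, -1.47 and 0.20.

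**Figure D4:**
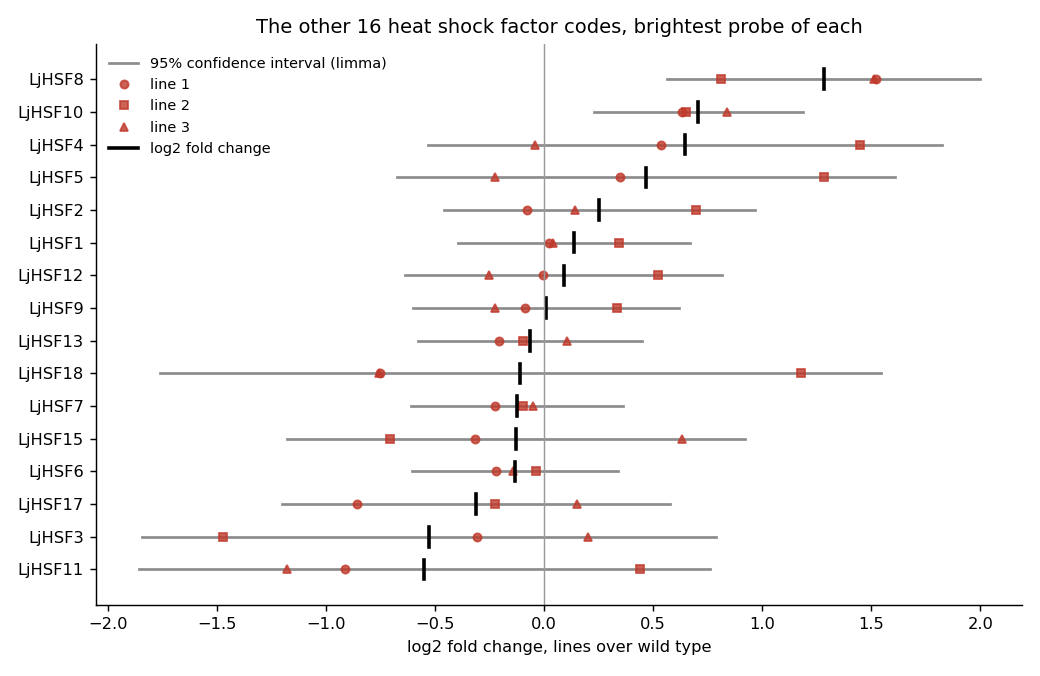
Log2 fold change of the lines over wild type (horizontal axis) at the brightest probe of the other 16 heat shock factor codes, with each line's difference from the wild type mean as symbols, the fold change as a black bar and its 95% confidence interval from limma as a grey line. Only the intervals of LjHSF8 and LjHSF10 lie above 0, and neither gene passed the adjusted threshold.

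The order of the lines varied across these genes. Line 2 was the highest line for 9 of these 16 genes and line 1 for 1, beside 36.5% and 20.5% of all probes tested. Among the 13 member probes that passed the filter, line 2 was highest at 5 and lowest at 6. Line 2 was the lowest line at 45.9% of all probes.

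Profiles over the 6 arrays were compared after each was centred on its own mean, and the genes with the smallest root mean square difference from a member's brightest probe were taken. For LjHSF14 these were LjMYB27 (0.37), CYP73A_LjSGA_082453.1 (0.40), C4H03_LjSGA_082453.1 (0.41) and LjMYB65_est (0.41), in log2 units. The LjHSF14 probe compared was CUST_1569_PI399331514, the brighter of its probes only through the lines. In wild type its mean was -6.49, against -5.48 at CUST_1568_PI399331514, where the groups overlapped. LjMYB27 and LjMYB65_est are MYB transcription factor codes, and the CYP73A and C4H03 names carry 1 locus identifier and a code of cinnamate 4-hydroxylase, an early enzyme of phenylpropanoid synthesis. Their log2 differences, near that of LjHSF14 by the choice of the closest profiles, were 3.27, 3.22, 3.24 and 2.82. These 4 were well above background on all arrays, while LjHSF14 was so on 1 wild type array, so the size of its step, and with it this order, depends on values near background. At the cinnamate 4-hydroxylase probes the 3 lines were nearly level, whereas line 3 stood above lines 1 and 2 for LjHSF14.

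For LjHSF16 the closest were LjMYB58 (0.19), a probe listed only as Glycoside (0.21), LjbHLH52 (0.22) and At5g48490_03_chr2.LjT03I05.130.nc (0.22). LjMYB58 had 0.33, -0.14 and -0.68 in lines 1, 2 and 3, against -1.90, -2.18 and -1.96 in wild type. Line 3 was its lowest line, as at the LjHSF16 probe compared, CUST_1562_PI399331514, and at 30.3% of all probes. The highest was line 1 for LjMYB58 and line 2 at CUST_1562_PI399331514, and at LjHSF16_est line 2 was the lowest. LjbHLH52 was not well above background on any wild type array. The Glycoside probe was so on 2 of them, with a log2 signal of -6.80, -7.26 and -6.99 on wild type arrays 1, 2 and 3. The steps of both thus depend on values near background. For LjMBF1-2 the probe compared was CUST_3174_PI399331514, where line 3 was high. At CUST_3173_PI399331514 line 3 was not apart, at 1.12 beside 0.86 and 0.72 in lines 1 and 2. The closest to the probe compared were CYP75A_LjSGA_063484.1 (0.33), LjbHLH103 (0.44), LjERF101 (0.48) and TLR_05_CM0528.440.nd (0.48). Of these only LjERF101 and TLR_05_CM0528.440.nd were well above background on all arrays. LjERF101 had -5.18, -5.23 and -3.30 in lines 1, 2 and 3, against -3.83, -4.47 and -3.83 in wild type.

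The flatter LjMBF1 profiles had closer neighbours. The nearest was LjJumonji-C4 (0.04) for LjMBF1-1, UGT91H_chr3.LjT14J20.130.nc (0.09) for LjMBF1-3, LjZF-C3HC4-19 (0.03) for LjMBF1-4 and BGLU63_LjSGA_080542.1 (0.05) for LjMBF1-5. No heat shock factor or other LjMBF1 code was among the 4 closest genes of any member. With 18 heat shock factor and 5 LjMBF1 codes among 2543 genes tested, nothing is read from this absence. All these profiles share the same 6 arrays, of which wild type 1 and 3 nearly repeat each other.

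**Figure D5:**
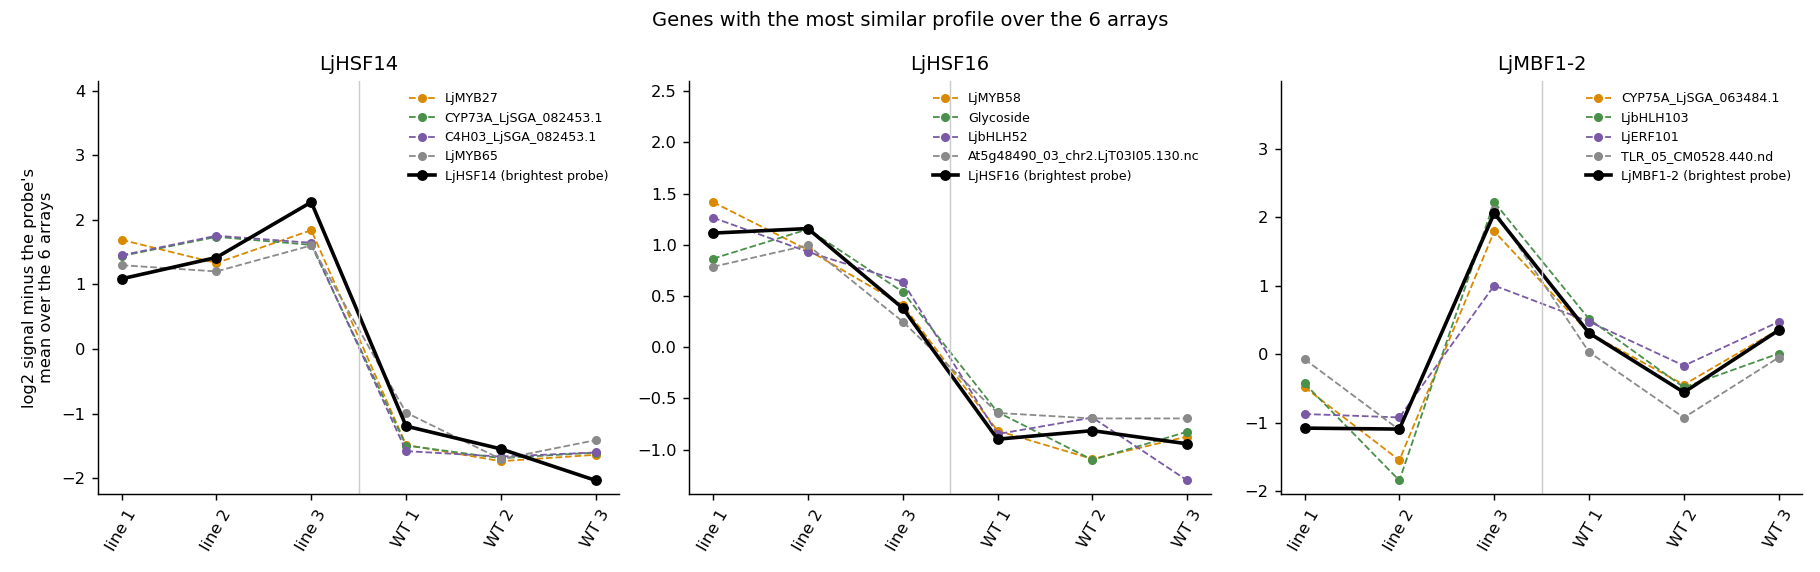
Log2 signal minus the probe's mean over the 6 arrays (vertical axis) for the brightest probes of LjHSF14, LjHSF16 and LjMBF1-2 (black) and the 4 genes with the smallest root mean square difference from each (dashed), in lines 1 to 3 and wild type arrays 1 to 3. The neighbours of LjHSF14 and LjHSF16 step down between the lines and wild type, and those of LjMBF1-2 peak in line 3.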

How the data were processed

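Leaf RNA of 3 transgenic lines and 3 wild type samples was hybridised to 1 single-colour array each, all on 1 slide with 1 scan time. In the deposited spot intensity, the background was subtracted and a spatial trend removed by Agilent Feature Extraction 10.7.3.1, per the file headers and the submitters' processing notes. It is not scaled between arrays, and the deposited value table held the same intensity in 91068 of 91068 cells. Here log2 intensity minus the array's 75th percentile (364 to 404) was averaged over a probe's spots, leaving out outlier flags. Between 71.7% and 78.0% of spots were well above background and none was saturated. Tested probes had at least 0.5 of their spots well above background on 3 or more arrays, which left 5039 of 6358. limma 3.58.1 in R 4.3.3 compared the groups, with Benjamini-Hochberg adjustment over all tested probes and a threshold of 0.05. The number of arrays limits the precision (3 residual and 2.54 prior degrees of freedom). On simulated data for this comparison (5039 probes), the share of changed probes called was 9.2% at 2-fold and 79.8% at 4-fold, beside a mean of 6 false calls per run.

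Members, lists and the averaging of wild type arrays 1 and 3 were chosen with earlier results of these data known. Named are all member probes, the 2 highest and 2 lowest of the other heat shock factors, and the 4 genes closest to each member's brightest probe, in full for 3 members. Alternatives were the other scalings, background correction, filters, blocks and left-out arrays. Gene names are the array's own, none matched the RefSeq table, and probe sequences and genome positions were not used here.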

Additional observations from a re-analysis of the deposited data

How the results depend on the processing

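The LjHSF16 difference at CUST_1562_PI399331514 stayed between 1.60 and 2.00 over 19 alternatives and the LjMBF1-2 difference at CUST_3174_PI399331514 took both signs, from -0.97 to 0.60. For LjHSF14 at CUST_1569_PI399331514 it was 0.60 with normexp (on the median spot signal, added after seeing the data because the files hold no mean signal) and 2.67 with slide row as a block, and 2.83 to 3.43 with an array left out. Over all member probes, 11 of 264 alternative values moved by more than the spread between samples. Many of the 264 could not move, since other filters and keeping outlier-flagged spots left every member value unchanged. Where it was run, the replicate block repeated the values with all arrays counted singly. At CUST_3174_PI399331514, where the lines spread widely, even -0.97 did not count as moved. The share is therefore no measure of how stable the values are.

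Of all probes, 173 were called (116 higher, 57 lower). The count was 639 with all 6 arrays counted singly, 25 with spike-in scaling, 110 with no filter on dim probes and 2 with row blocked, which sets only line 1 against wild type. It was 373 with the replicate block, although the numbers were not taken as pairs, since deviations of same-numbered arrays correlated at 0.01, 0.17 and 0.07. With an array left out it ran from 4 (without wild type arrays 1 and 3) to 439 (without line 2), with 8 without wild type array 2, 14 without line 1 and 77 without line 3. Of the other heat shock factors, 2 were called with all 6 arrays singly (LjHSF8 and LjHSF10), and 1 with normexp (LjHSF10), quantile normalization (LjHSF8) or the replicate block (LjHSF8); with an array left out it was 0 to 1, LjHSF8 without line 2. Their median stayed between -0.17 and 0.15. Spike-in scaling moved the median of all probes to -0.24, against -0.09.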
